A study of Homo sapiens with 26 samples.

Results

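The genes described here are the stress sensors, transcription factors, chaperones and degradation factors XBP1, HSPA5, HSP90B1, DNAJB9, HERPUD1, PDIA4, SDF2L1, CALR, ERN1 and ATF6. They were taken by name, 10 of the 63086 genes listed in each count file, and each matched a single gene identifier. All 10 also passed the filter on low counts, which left 9099 protein-coding genes to test. After arsenite, HERPUD1 rose 3.29-fold to 4.99-fold in the 4 cell populations, and XBP1, HSPA5, HSP90B1, DNAJB9 and ATF6 rose by smaller amounts in each of them. SDF2L1 fell in 3 of the 4. Genes called in at least 1 comparison of a mutant with the wild type were XBP1, HERPUD1, SDF2L1, CALR and ERN1.

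The endoplasmic reticulum (ER) folds secreted and membrane proteins with the help of lumenal chaperones. When unfolded proteins accumulate there, the sensors IRE1 (encoded by ERN1), ATF6 and PERK signal to the nucleus in what is called the unfolded protein response. IRE1 splices XBP1 mRNA, the cytosolic fragment of ATF6 enters the nucleus, and PERK phosphorylates the translation factor eIF2α, which favours translation of the transcription factor ATF4. XBP1 and ATF6 act on promoters of chaperone and ER-associated degradation genes. Other kinases than PERK also phosphorylate eIF2α, so ATF4 target genes also respond to stress outside the ER. Sodium arsenite binds protein thiols, causes oxidative stress and is widely used to induce stress granules.

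The study asked how phosphorylation sites in the disordered linkers of the RNA-binding protein IGF2BP1 affect its condensates and the RNAs it regulates. Poly(A) RNA was sequenced from the human colon cancer line HCT116. In 24 libraries the cells were labelled as lacking IGF2BP2 and IGF2BP3 (IGF2BP2 KO, IGF2BP3 KO) and as carrying Tet-OsTIR1-PURO. They expressed mCherry-IGF2BP1 from a lentiviral transgene, either as wild type (WT) or as the mutant S181E, Y396E or RQ. S181E and Y396E put a glutamate in place of a serine or tyrosine described as a phosphorylation site. The study detected phosphorylated S181 in cells, but phosphorylated Y396 only after Src kinase treatment in vitro. RQ replaces arginines by glutamine in the first linker. Each of these 4 populations received PBS (control) or 500 µM sodium arsenite for 2 h, with 3 independently plated dishes per group, so there were 8 groups of 3 libraries. Parental HCT116 cells gave 1 control and 1 arsenite library. Each population was sorted from a transduced pool and exists once, so that the mutation and other properties of a population cannot be told apart. RNA came from clarified lysate, and RNA that sediments with insoluble material is therefore not in these counts.

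Libraries held 22508145 to 50834401 counts. Levels are given as CPM, with the SD over 3 libraries. CPM are the reads of a gene relative to the library's total over protein-coding genes, corrected by edgeR's TMM factors for shifts in composition. Where library totals are named as a scale, they are likewise totals over protein-coding genes. Y396E arsenite replicate 3 stood apart, with counts in 13897 genes against at least 20850 in the other 23 mCherry-IGF2BP1 libraries. Calls among the 10 genes that changed without it are given with and without it. Unless stated, values of Y396E arsenite include it. The share of reads on protein-coding genes was 89.47% to 91.72% in the WT and RQ control dishes and 94.66% to 95.91% in those of S181E and Y396E. In the arsenite dishes it was 97.01% to 98.27%. TMM factors were 0.866 to 0.964 in WT and RQ control and 0.986 to 1.05 in S181E and Y396E control. What part this split has in the differences of S181E and Y396E from WT was not tested. The 5 epithelial markers summed to 2531 to 4021 CPM, and 10 of the 11 blood, fibroblast and endothelial markers stayed under 1 CPM in each library. COL1A1 was the exception at 6.46 to 11.4 CPM. IGF2BP1 itself had 0.343 and 0.638 CPM in the parental control and arsenite libraries. WT cells had 11.9 ± 2.24 CPM in control and 28.8 ± 1.13 in arsenite (SD, n = 3). RQ cells had 14.2 ± 1.88 and 46.5 ± 0.852 CPM, S181E cells 18.4 ± 1.54 and 42.7 ± 0.679, and Y396E cells 16.3 ± 1.16 and 42.7 ± 1.24.

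In hg38, the coordinates of the count files put ERN1 (ENSG00000178607.17) on chromosome 17 from 64039080 to 64130819, minus strand. ATF6 (ENSG00000118217.7) lies on chromosome 1 from 161766298 to 161964070, plus strand. XBP1 (ENSG00000100219.17) lies on chromosome 22 from 28794555 to 28800597, minus strand. SDF2L1 (ENSG00000128228.5) is on the same chromosome from 21642302 to 21644299, plus strand. HSPA5 (ENSG00000044574.9) is on chromosome 9 from 125234853 to 125241382, minus strand. HSP90B1 (ENSG00000166598.16) is on chromosome 12 from 103930332 to 103953931, plus strand. DNAJB9 (ENSG00000128590.5) and PDIA4 (ENSG00000155660.11) share chromosome 7, the former from 108569874 to 108574850 on the plus strand and the latter from 149003062 to 149028662 on the minus strand. HERPUD1 (ENSG00000051108.15) is on chromosome 16 from 56932142 to 56944864, plus strand. CALR (ENSG00000179218.15) is on chromosome 19 from 12938609 to 12944489, plus strand. Counts cover the annotated exons of each gene, from 3 in DNAJB9 and SDF2L1 to 20 in HSP90B1 and ERN1 after merging. HSP90B1 shares 131 exonic bases with MIR3652 on the same strand, and reads that overlap both were not counted. The counts do not separate spliced from unspliced XBP1 mRNA, nor do they show the cleavage of ATF6.

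The promoters of 6 of the 10 genes carry an ER stress response element, the best-known binding sequence of ATF6 and XBP1. These matches are shown because few promoters hold one. They are RefSeq promoter sequences (GRCh38.p14) on the strand of the gene, read 5′ to 3′, with 5 bases on either side of the match. Capitals mark the fixed letters of the element. ERSE was searched as CCAAT and CCACG with 9 bases between them, and ERSE-II as ATTGG and CCACG with 1 base between them, on both strands.
XBP1, ERSE, chr22:28800598-28800626: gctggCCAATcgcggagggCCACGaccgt
HSPA5, ERSE, chr9:125241386-125241414: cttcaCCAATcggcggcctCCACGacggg
HSP90B1, ERSE, chr12:103930211-103930239: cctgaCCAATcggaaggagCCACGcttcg
HSP90B1, ERSE on the opposite strand, chr12:103930316-103930344: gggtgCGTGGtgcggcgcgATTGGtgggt
CALR, ERSE on the opposite strand, chr19:12938379-12938407: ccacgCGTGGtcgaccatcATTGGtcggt
HERPUD1, ERSE-II, chr16:56932020-56932040: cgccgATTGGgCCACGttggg
SDF2L1, ERSE-II on the opposite strand, chr22:21642109-21642129: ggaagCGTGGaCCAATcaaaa

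The matches began 52 bases before the start in XBP1, 66 in HSPA5, 194 and 89 in HSP90B1, 225 in CALR, 117 in HERPUD1 and 188 in SDF2L1. In all, 0.0769% of 35116 promoter windows of 300 bases held an ERSE and 0.0541% an ERSE-II. DNAJB9, PDIA4, ERN1 and ATF6 held neither in their windows. The shorter letters TGACGTG, the core of the UPRE, stood in 1.97% of all windows and in 0 of the 10 genes. TGATGCAA, the letters of a C/EBP-ATF composite site used by ATF4, stood in 0.866% of all windows and, among the 10, in HERPUD1 alone. Among the genes tested, 26 had an ERSE or ERSE-II in a window. In WT cells arsenite raised 15 of the 26, among them XBP1, HSPA5, HSP90B1 and HERPUD1, and lowered 8, among them SDF2L1, while CALR was not called (36.3% and 35.9% of all tested genes). The counts of the 26 were 14 and 7 in RQ (37.1% and 35.8% of all genes), 14 and 2 in S181E (32% and 33.3%) and 12 and 4 in Y396E (32.9% and 32.9%). These counts include the 6 genes shown above. Among the 20 others, 11 were higher and 7 lower in WT and 10 and 6 in RQ. In S181E 10 of the 20 were higher and 1 lower, and in Y396E 8 and 4. Of the 4 genes with neither element, DNAJB9 and ATF6 rose in WT. A match is a description of letters, and absence says only that they are not in that window.

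The 10 genes spanned a wide range of levels. In WT control cells, per kilobase of exon, CALR was the highest at 567 CPM per kb, followed by HSP90B1 (158), SDF2L1 (142), PDIA4 (123) and HSPA5 (100). XBP1 followed at 31 CPM per kb, HERPUD1 at 13.8, DNAJB9 at 5.34, ATF6 at 3.71 and ERN1 at 0.741. The mean ± SD ranges of neighbours overlapped from HSP90B1 down to HSPA5, whereas the other steps exceeded the spread. Among these 4, HSP90B1 (158 ± 14.9) lay beyond the spread of PDIA4 (123 ± 13.3) and of HSPA5 (100 ± 11.1), while neighbours were not separated by it. All genes come from the same libraries, and the order within each library was not compared. The lengths are those of all annotated exons merged, 18223 bases for ERN1 and 10574 for ATF6, which lowers the per-length level of a gene whose main transcript is shorter. The plot of levels by library shows each of the 24 values of each gene.

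**Figure D1:**
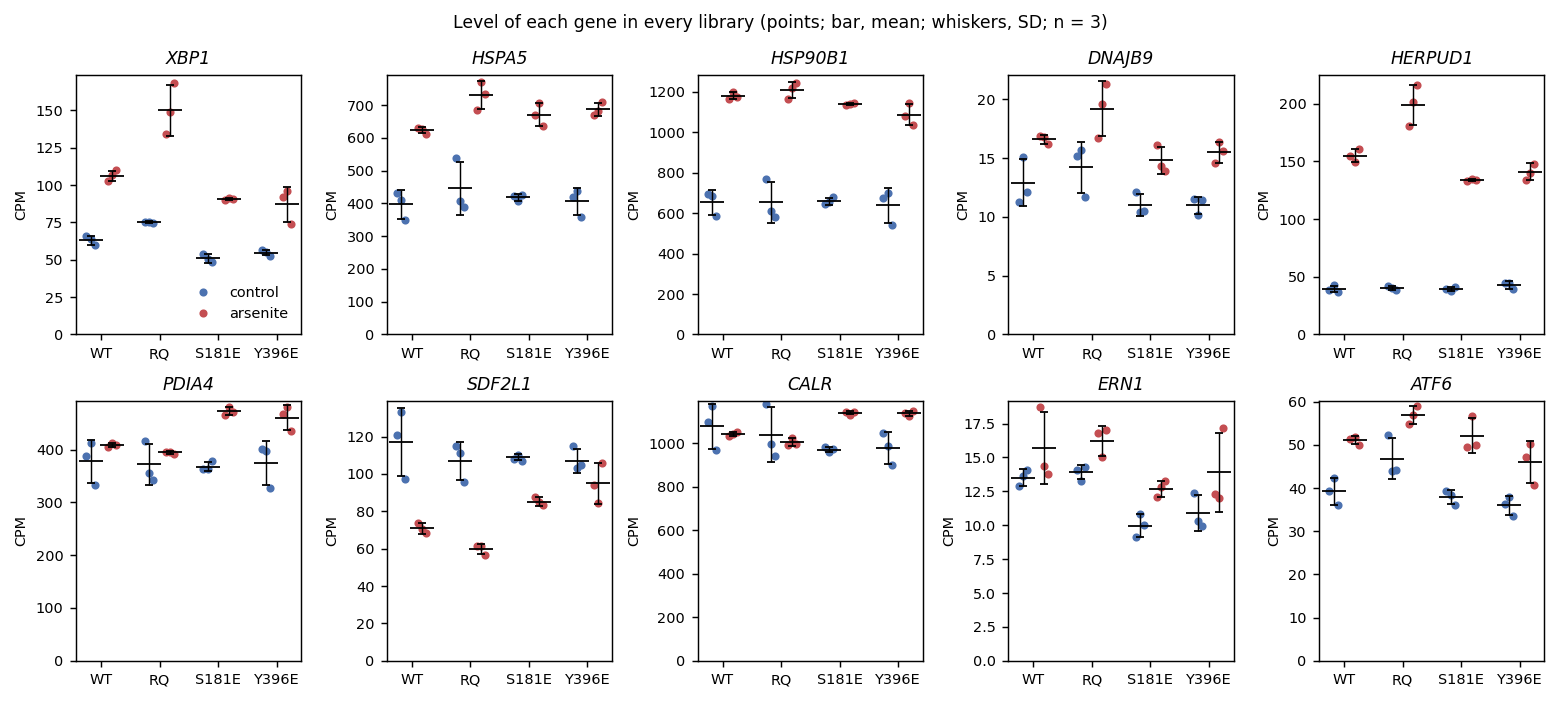
CPM of each of the 10 genes (vertical axes from 0) in the 4 populations, control in blue and arsenite in red; points are libraries, bars means and whiskers SD (n = 3). The arsenite libraries of HERPUD1 sit between 133 and 216 CPM, all above the control libraries at 37.2 to 44.7, while SDF2L1 falls in WT and RQ to 56.6 to 73.8.

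Arsenite against control was compared in each population with edgeR's quasi-likelihood test and Benjamini-Hochberg adjustment over the 9099 genes, and a gene was called at adjusted p under 0.05 and a fold change above 1.2. In WT cells 6 of the 10 genes were called higher and 1 lower, where 36.3% of all tested genes were called higher and 35.9% lower. The median log2 change of the 10 was 0.38 against -0.01 over all tested genes. In RQ cells the counts were also 6 and 1 (37.1% and 35.8% of all genes). In S181E cells 8 were called higher and 1 lower (32% and 33.3%), and in Y396E cells 8 higher and 0 lower (32.9% and 32.9%). Library totals in place of TMM moved the median of all genes in WT from -0.01 to 0.14 and the calls from 3303 higher and 3262 lower to 3947 and 2485. Changes are therefore relative to the bulk of genes. A CPM value does not tell more RNA per cell from a shift in the rest of the RNA, nor a change in all cells from a change in some.

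HERPUD1, a membrane protein of the ER that assists the degradation of misfolded proteins, had the largest change of the 10 in every population. In WT its 3 libraries were at 38.3, 42.8 and 37.2 CPM in control and at 155, 149 and 161 CPM in arsenite. The log2 change was 1.98 ± 0.07 (SE; adjusted p = 1.93e-18, edgeR), a 3.94-fold rise. In RQ the arsenite libraries reached 181.3, 201.5 and 215.6 CPM from 41.8, 39.9 and 38.2, a log2 change of 2.32 ± 0.07. In S181E they reached 133, 135 and 134 CPM from 39.8, 37.5 and 41.1, and in Y396E 134, 140 and 148 CPM from 44.7, 44.5 and 39.1. The log2 changes there were 1.77 ± 0.07 and 1.72 ± 0.07. The control levels of the 4 populations overlapped and the arsenite levels did not overlap with them anywhere.

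Of the signalling genes, XBP1 rose in all 4 populations and ATF6 rose by less. XBP1 encodes the transcription factor whose mRNA IRE1 splices. Its libraries in WT were at 65.7, 64 and 59.7 CPM in control and at 103, 107 and 110 CPM in arsenite, a log2 change of 0.75 ± 0.08 (adjusted p = 2.73e-09, edgeR). The change was 1.00 ± 0.08 in RQ, 0.83 ± 0.08 in S181E and 0.67 ± 0.08 in Y396E. The arsenite libraries lay above the control libraries of their own population in each case. ATF6, the membrane-bound sensor whose released fragment is a transcription factor, went from 39.3, 42.3 and 36 CPM to 51.4, 51.9 and 50 CPM in WT. Its log2 changes were 0.38 ± 0.08 for WT and 0.28 ± 0.08 for RQ cells, and 0.46 ± 0.08 for S181E and 0.36 ± 0.08 for Y396E cells. The call of ATF6 in RQ rested on a fold just past 1.2, and it was lost at a log2 change of 0.24 without RQ control replicate 2 or without RQ control replicate 3, and at 0.25 without RQ arsenite replicate 3.

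ERN1, which encodes IRE1, the kinase and RNase of the response, was the lowest of the 10 per kilobase and was called in 2 of the 4 populations. In WT it had 12.9, 13.6 and 14.1 CPM in control and 18.7, 14.4 and 13.8 CPM in arsenite, and the groups overlapped (log2 change 0.21 ± 0.13, adjusted p = 0.134, edgeR). The change was 0.22 ± 0.13 in RQ (adjusted p = 0.109). ERN1 was called higher in S181E, from 9.1, 10.8 and 10 CPM to 12.1, 12.8 and 13.3 CPM (0.36 ± 0.13, adjusted p = 0.0169), and in Y396E, from 12.4, 10.3 and 9.98 CPM to 12.3, 12 and 17.2 CPM (0.35 ± 0.13, adjusted p = 0.0174). The highest of the Y396E values came from the library that stood apart, and without it the change was 0.16 (adjusted p = 0.181). The call in Y396E was also lost without Y396E control replicate 2 (0.31, adjusted p = 0.0615) or replicate 3 (0.28, adjusted p = 0.082). The call in S181E was lost without S181E control replicate 1 (0.29, adjusted p = 0.0766) or S181E arsenite replicate 3 (0.32, adjusted p = 0.0605). With library totals as the scale, ERN1 was called higher in WT at 0.36 and in RQ at 0.39 as well.

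The large chaperones HSPA5 and HSP90B1 rose in every population by similar amounts. HSPA5, known as BiP, is the ER Hsp70 that also holds the sensors inactive. It was at 433, 410 and 348 CPM in WT control and at 630, 628 and 613 CPM in WT arsenite, with log2 changes of 0.65 ± 0.09 for WT and 0.71 ± 0.09 for RQ cells, and 0.68 ± 0.09 for S181E and 0.76 ± 0.09 for Y396E cells. HSP90B1, the ER Hsp90 known as GRP94, was at 695, 686 and 584 CPM in WT control and at 1166, 1200 and 1177 CPM in WT arsenite. Its log2 changes were 0.85 ± 0.09 for WT and 0.89 ± 0.09 for RQ cells, and 0.79 ± 0.09 for S181E and 0.77 ± 0.09 for Y396E cells. The adjusted p of these 8 changes reached at most 4.26e-07 (edgeR), and the arsenite libraries of each population lay above its control libraries.

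DNAJB9, an Hsp40 co-chaperone of BiP known as ERdj4, rose by less and from a low level. It had 11.3, 15.1 and 12.1 CPM in WT control and 16.9, 16.8 and 16.2 CPM in WT arsenite, a log2 change of 0.38 ± 0.12 (adjusted p = 0.00509, edgeR). The change was 0.44 ± 0.12 in RQ, 0.42 ± 0.12 in S181E and 0.50 ± 0.12 in Y396E. No arsenite library fell within the control range of its population.

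SDF2L1, a soluble partner of the BiP chaperone complex, moved the opposite way. In WT it was at 121, 133 and 97.4 CPM in control and at 73.8, 70.5 and 68.2 CPM in arsenite, and the log2 change was -0.73 ± 0.09 (adjusted p = 4.36e-08, edgeR). RQ went from 115, 111 and 95.7 CPM to 61.5, 61.4 and 56.6 CPM, a change of -0.84 ± 0.09. In S181E the change was smaller, from 108, 110 and 107 CPM to 87.5, 84.8 and 83.2 CPM (-0.35 ± 0.09, adjusted p = 0.000873). In Y396E the libraries overlapped, at 115, 103 and 105 CPM against 94.3, 84.4 and 106 CPM, and the change of -0.18 ± 0.09 was not called (adjusted p = 0.0614). Without Y396E arsenite replicate 3, the library at 106 CPM, it was -0.27 and called (adjusted p = 0.00437).

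CALR and PDIA4 did not pass the test in WT or RQ. CALR, a lectin chaperone for glycoproteins, had 1097, 1171 and 967 CPM in WT control and 1034, 1041 and 1052 CPM in WT arsenite (log2 change -0.05 ± 0.07, adjusted p = 0.498, edgeR). In S181E it went from 984, 959 and 972 CPM to 1144, 1132 and 1146 CPM. The change of 0.23 ± 0.07 there (adjusted p = 0.00287) and that of 0.22 ± 0.07 in Y396E (adjusted p = 0.00431) passed the adjusted p but not the fold. Without Y396E control replicate 1 the change in Y396E was 0.27 and called, and library totals gave 0.28 in both populations, also called. PDIA4, a protein disulfide isomerase, had 388, 413 and 333 CPM in WT control and 405, 412 and 409 CPM in WT arsenite (0.11 ± 0.07, adjusted p = 0.161). With library totals this change was 0.27 and called. PDIA4 was called higher in S181E, from 363, 363 and 379 CPM to 466, 481 and 471 CPM (0.36 ± 0.07, adjusted p = 0.000102). In Y396E it went from 401, 397 and 327 CPM to 468, 481 and 435 CPM (0.30 ± 0.07, adjusted p = 0.000751), a call that was lost at 0.21 without Y396E control replicate 3.

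**Figure D2:**
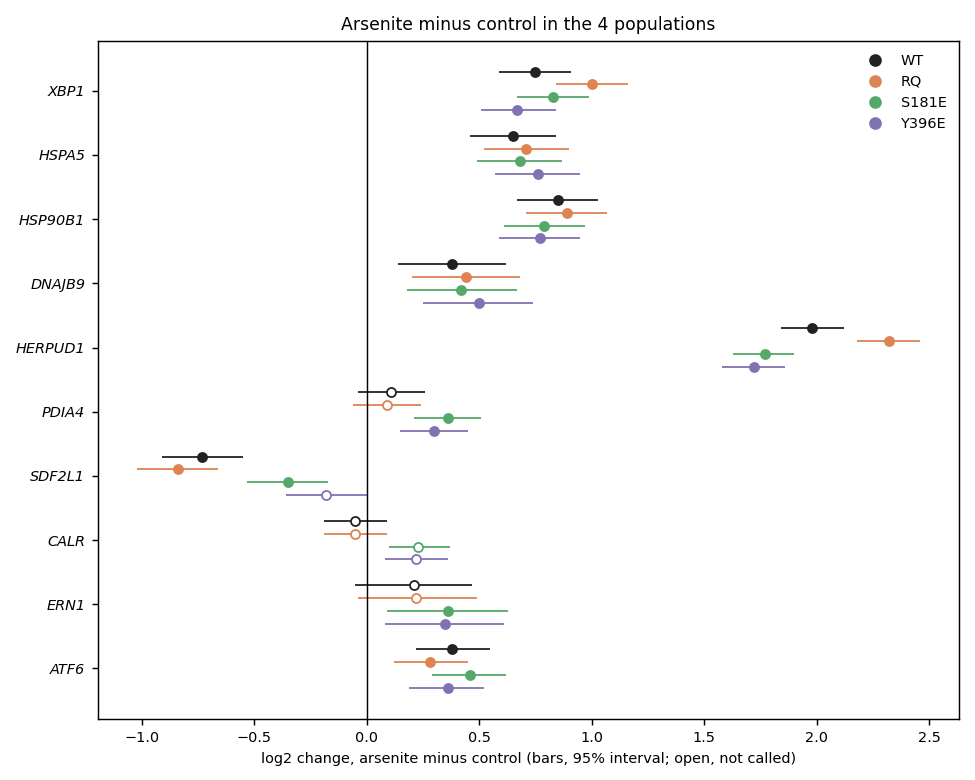
Log2 change, arsenite minus control (horizontal axis), of the 10 genes in the 4 populations with 95% intervals; filled points were called and open points were not. HERPUD1 lies at 1.72 to 2.32 and SDF2L1 is the gene called lower, at -0.84 to -0.35 where it was called.

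The parental pair has 1 library per treatment and was described without a test. HERPUD1 went from 44.1 to 123 CPM and HSP90B1 from 545 to 1126 CPM, log2 ratios of 1.48 and 1.05. XBP1 (58.3 to 95 CPM), HSPA5 (378 to 626 CPM), DNAJB9 (12.2 to 19.3 CPM) and ATF6 (34.7 to 53.3 CPM) had ratios of 0.62 to 0.73. SDF2L1 went from 123 to 76.4 CPM, a ratio of -0.69. PDIA4 had a ratio of 0.42, CALR of 0.15 and ERN1 of 0.07. The pair differs from the WT population in the endogenous IGF2BP2 and IGF2BP3 as well as in the transgene.

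The wider machinery of the ER was described with 6 lists of 77 other genes, of which 70 were tested. In WT cells arsenite raised 14 of the 70 and lowered 41, with a median log2 change of -0.46, where 36.3% of all tested genes rose and 35.9% fell. The split was 15 and 42 in RQ (37.1% and 35.8% of all genes), 16 and 29 in S181E (32% and 33.3%) and 18 and 30 in Y396E (32.9% and 32.9%). With library totals it became 18 and 35 in WT and 20 and 35 in RQ. The plot by role shows that, apart from the list of PERK branch and ATF4 target genes, the medians of the lists lay on the other side of 0 from that of the 10 genes in WT.

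**Figure D3:**
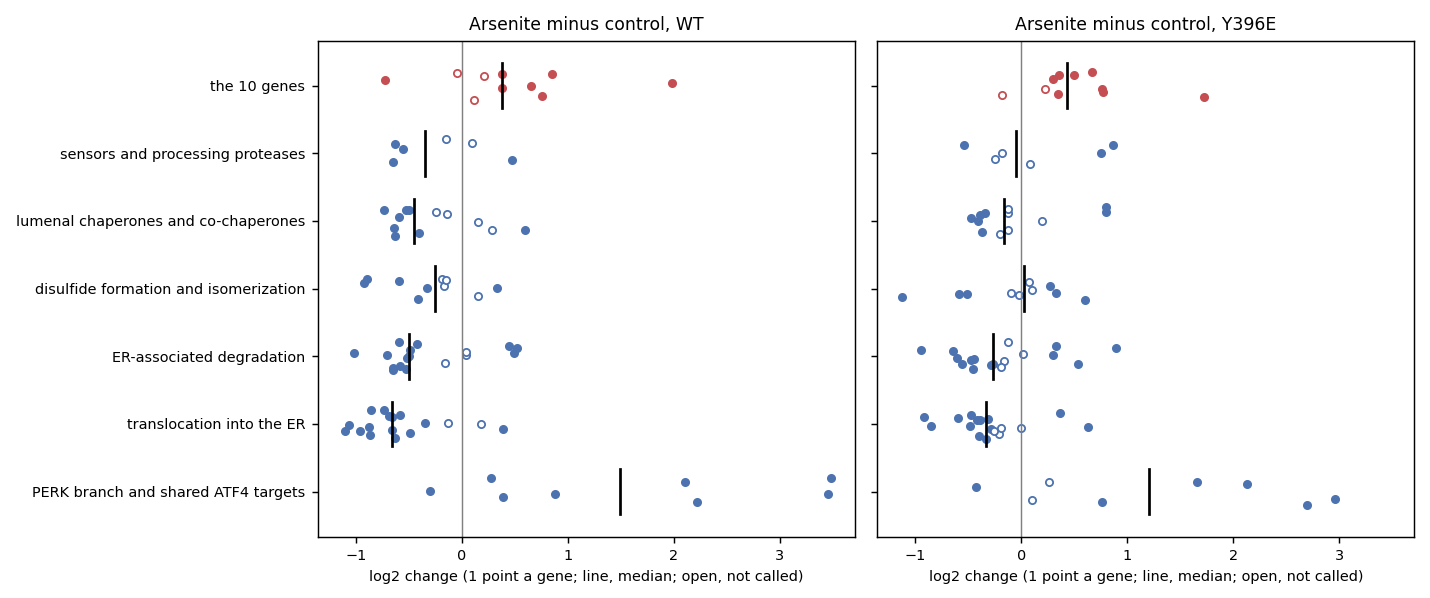
Log2 change, arsenite minus control (horizontal axis), in WT (left) and Y396E (right); each point is a tested gene, filled if called, and lines are medians by role. In WT the medians are 0.38 for the 10 genes, -0.66 for translocation and 1.49 for the PERK branch list.

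Of the 6 tested sensors and processing proteases, 1 rose and 3 fell in WT. ATF6B, the paralog of ATF6, rose by 0.47 ± 0.10 on the log2 scale, whereas MBTPS1 and CREB3 fell by 0.65 ± 0.06 and 0.63 ± 0.10. MBTPS1 encodes the site-1 protease that cleaves ATF6, and CREB3 is a related membrane-bound factor. EIF2AK3, which encodes PERK, had a change of 0.09 ± 0.20 and was not called. Of 12 lumenal chaperones and co-chaperones 1 rose and 7 fell. The riser was HYOU1, the nucleotide exchange factor of BiP known as GRP170 (0.59 ± 0.09), and the largest falls were in the Hsp40 DNAJC10 (-0.74 ± 0.06) and in MANF (-0.64 ± 0.07), a secreted ER stress protein. Of 10 genes for disulfide bonds 1 rose, ERP44 (0.33 ± 0.08), and 5 fell. The oxidase ERO1A and the oxidoreductase TMX1 fell the most, by 0.93 ± 0.07 and 0.90 ± 0.10.

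Of 17 tested genes of ER-associated degradation 3 rose and 11 fell in WT. OS9, a lectin that recognizes misfolded glycoproteins, rose by 0.52 ± 0.09, and HERPUD2, the paralog of HERPUD1, by 0.49 ± 0.09. ERLEC1 fell by 1.02 ± 0.07 and SELENOS by 0.71 ± 0.06. Translocation into the ER was the list with the largest share of falls, with 14 of 17 lower and SEC63 alone higher (0.39 ± 0.10). SPCS3, a subunit of the signal peptidase, fell by 1.11 ± 0.06, and SSR3, a subunit of the translocon-associated TRAP complex, by 1.07 ± 0.06. The list of PERK branch and ATF4 target genes moved the other way, with 7 of 8 higher. DDIT3, which encodes CHOP, went from 9.18 to 102 CPM on average (3.48 ± 0.09) and the stress factor ATF3 from 42.9 to 470 CPM (3.45 ± 0.09), while ATF4 itself fell by 0.30 ± 0.04. DDIT3, ATF3, PPP1R15A (2.22 ± 0.05) and SESN2 (2.10 ± 0.12) had larger log2 changes in WT than HERPUD1 (1.98 ± 0.07).

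Without arsenite, the 10 genes differed little between the mutants and WT. In RQ control cells 0 of the 10 were called by edgeR or DESeq2, where 1% of all tested genes were called higher and 0.429% lower. An unadjusted p under 0.05 was reached by 1285 of the 9099 genes and by 2 of the 10. Those were XBP1, at 75.3, 75.6 and 74.6 CPM against 65.7, 64 and 59.7 in WT (log2 difference 0.25 ± 0.08, adjusted p = 0.0989, edgeR), and ATF6 (0.26 ± 0.08, adjusted p = 0.105). Both had their RQ libraries above those of WT, and ATF6 was called at 0.31 without WT control replicate 2 (adjusted p = 0.0466).

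In S181E control cells 2 of the 10 were called lower and 0 higher, with 15.4% and 15.7% of all genes. XBP1 was at 54.1, 50.5 and 48.3 CPM (-0.31 ± 0.08, adjusted p = 0.00245, edgeR), below the 3 WT libraries. ERN1 was at 9.1, 10.8 and 10 CPM against 12.9, 13.6 and 14.1 in WT (-0.44 ± 0.13, adjusted p = 0.00801). With library totals, which moved the median of all genes in this comparison from 0.02 to 0.18 and the calls from 1427 higher and 1404 lower to 3238 and 642, XBP1 was at -0.15 (adjusted p = 0.0972) and ERN1 at -0.28 (adjusted p = 0.0807), neither called. In Y396E control cells 0 of the 10 were called by edgeR and 1 by DESeq2, where edgeR called 14.5% of all genes higher and 14.2% lower. An unadjusted p under 0.05 was reached by 4649 of the 9099 genes and by 3 of the 10, namely CALR (-0.14 ± 0.07, adjusted p = 0.0843, edgeR), XBP1 and ERN1. XBP1 had a difference of -0.21 ± 0.08 (adjusted p = 0.0361), short of the fold, and ERN1 of -0.31 ± 0.13 (adjusted p = 0.0583). The libraries of both lay below those of WT, and ERN1 was called at -0.41 without Y396E control replicate 1 and at -0.31 without WT arsenite replicate 1, Y396E arsenite replicate 2 or Y396E arsenite replicate 3, which enter through the shared estimate of spread. IGF2BP1 mRNA was itself higher in both populations than in WT, and its part in these differences was not tested.

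Among the other ER genes, more were lower than higher in the phosphomimetic mutants without arsenite. In S181E control cells 1 of the 70 was called higher and 31 lower (15.7% and 15.4% of all genes), with a median log2 difference of -0.25. In Y396E control cells 2 were higher and 26 lower (14.5% and 14.2% of all genes), with a median of -0.24. Library totals gave 4 higher and 7 lower in S181E and 4 higher and 9 lower in Y396E. In S181E the falls were 10 of 17 for translocation, 7 of 17 for degradation, 5 of 12 for chaperones, 4 of 10 for disulfide formation and 4 of 6 for sensors and proteases. The largest were in RNF139 (-0.90 ± 0.07), TRAM1 (-0.91 ± 0.06) and DERL1 (-0.78 ± 0.06), which are the 3 listed genes on chromosome 8. Of 322 tested genes of chromosome 8, 60.6% were called lower in this comparison, with a median of -0.42. Without the 3 genes the counts were 1 higher and 28 lower. On other chromosomes, SEC11C of the signal peptidase fell by 0.48 ± 0.07, PDIA5 by 0.55 ± 0.09 and ERP44 by 0.31 ± 0.08, both of the disulfide list, and the BiP exchange factor SIL1 by 0.50 ± 0.08. DNAJC10 and the prolyl isomerase PPIB fell by 0.35 ± 0.06 and 0.35 ± 0.07, ATF6B by 0.44 ± 0.10 and MBTPS1 by 0.33 ± 0.06. In the PERK list DDIT3 was higher (0.26 ± 0.10) and SESN2 lower (-0.34 ± 0.12). In RQ control cells 1 of the 70 was called higher, TRIB3, a pseudokinase induced by ATF4 (1.00 ± 0.12), and 0 lower.

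In arsenite, RQ cells had higher XBP1 and HERPUD1 than WT cells. Those were the 2 genes called higher of the 10, with 0 called lower, where 1.36% of all genes were higher and 0.154% lower. XBP1 was at 134, 149 and 168 CPM in RQ against 103, 107 and 110 in WT, a log2 difference of 0.50 ± 0.08 (adjusted p = 0.000165, edgeR). HERPUD1 was at 181.3, 201.5 and 215.6 CPM against 155, 149 and 161 (0.36 ± 0.06, adjusted p = 0.000754). Every RQ library lay above the WT libraries in both genes. HSPA5 (0.23 ± 0.09, adjusted p = 0.289) and SDF2L1 (-0.24 ± 0.09, adjusted p = 0.22) had an unadjusted p under 0.05 but were not called. Of the 70 other genes 5 were higher, all in the PERK branch list. TRIB3 was at 192 CPM against 54 in WT (1.83 ± 0.12) and SESN2 at 140 against 61 CPM, followed by DDIT3 (0.72 ± 0.08), CEBPB (0.70 ± 0.06) and ATF4 (0.42 ± 0.04). IGF2BP1 mRNA was at 46.5 CPM in these cells against 28.8 in WT, and its part in the differences was not tested.

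In arsenite SDF2L1 was higher in both phosphomimetic mutants than in WT. In S181E it was the 1 gene of the 10 called higher, with 0 called lower (5.32% and 8.42% of all genes), at 87.5, 84.8 and 83.2 CPM against 73.8, 70.5 and 68.2 in WT (0.27 ± 0.09, adjusted p = 0.03, edgeR). The call was narrow and was lost without any of 5 libraries, S181E arsenite replicates 1, 2 and 3 and WT arsenite replicates 2 and 3, at 0.24 to 0.28. XBP1 (-0.23 ± 0.08), HERPUD1 (-0.21 ± 0.06) and PDIA4 (0.21 ± 0.07) passed the adjusted p in S181E without reaching the fold. In Y396E, SDF2L1 was at 94.3, 84.4 and 106 CPM and called higher (0.42 ± 0.09, adjusted p = 0.00058), and XBP1 at 91.9, 95.9 and 73.8 CPM was called lower (-0.29 ± 0.08, adjusted p = 0.00498), with 9.77% and 11.9% of all genes. Without Y396E arsenite replicate 3, XBP1 was at -0.18 (adjusted p = 0.028) and not called. ERN1 was then at -0.35 in Y396E (adjusted p = 0.0101) and at -0.28 in S181E (adjusted p = 0.0252), and called in both, against -0.17 ± 0.13 and -0.29 ± 0.13 with it. Of the 70 other genes 6 were lower in S181E, with the same 3 genes of chromosome 8 among them, and 7 were lower and 2 higher in Y396E. Without Y396E arsenite replicate 3 the Y396E counts were 10 lower and 0 higher.

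**Figure D4:**
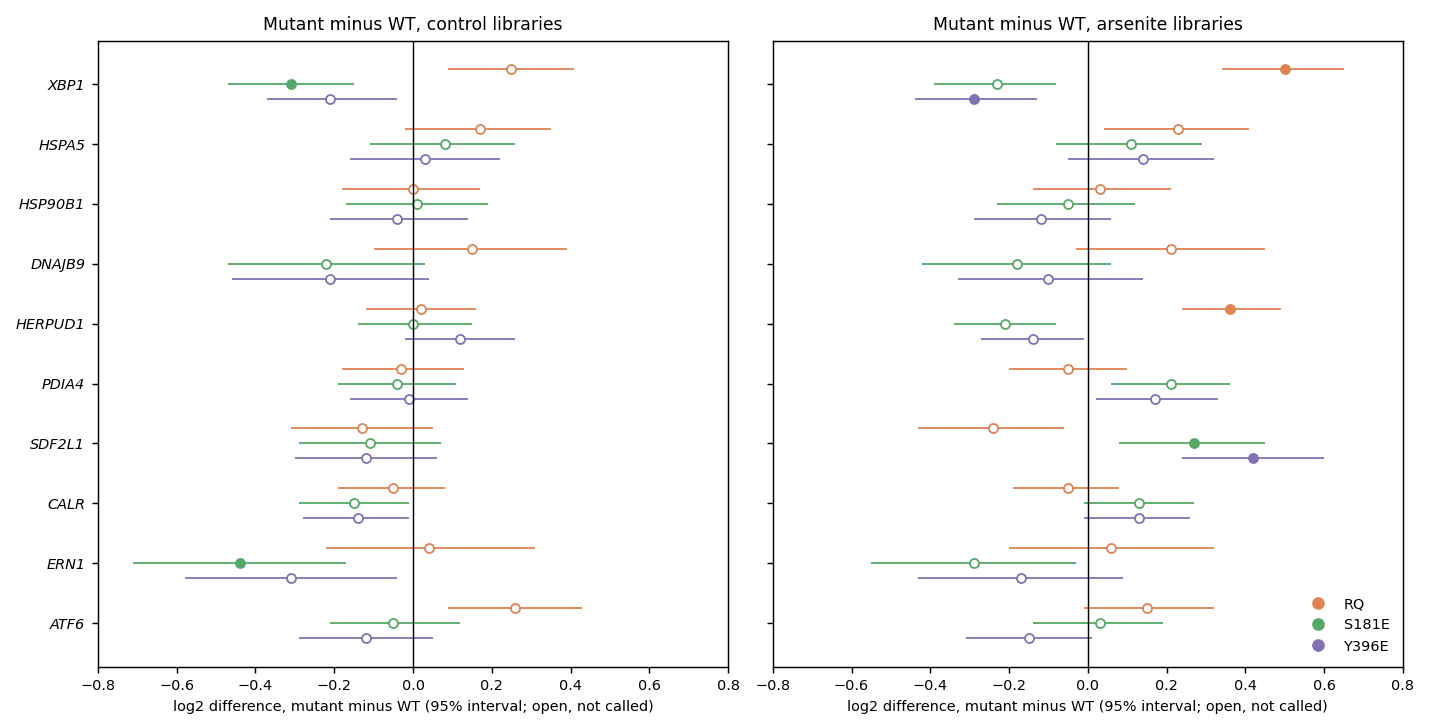
Log2 difference, mutant minus WT (horizontal axes), of the 10 genes in control (left) and arsenite libraries (right) with 95% intervals; filled points were called and open points were not. XBP1 in arsenite lies at 0.50 in RQ and at -0.29 in Y396E, and SDF2L1 at 0.27 in S181E and 0.42 in Y396E.

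Whether the size of the arsenite change differed from that in WT was tested as a difference of the log2 changes. In RQ 0 of the 10 were called by edgeR or DESeq2, and 2 had an unadjusted p under 0.05. Among all genes 0.22% were called higher and 0% lower by edgeR, with 333 at an unadjusted p under 0.05 and 3 called lower by DESeq2. HERPUD1 had the largest difference in RQ, 0.34 ± 0.09 (adjusted p = 0.251), and XBP1 had 0.24 ± 0.11 (adjusted p = 0.999). In S181E SDF2L1 and CALR were called higher and 0 lower (6.98% and 9.41% of all genes). For SDF2L1 the difference was 0.38 ± 0.12 (adjusted p = 0.0355), from -0.73 in WT to -0.35 in S181E, and for CALR it was 0.28 ± 0.09 (adjusted p = 0.0374), from -0.05 to 0.23. In Y396E the same 2 genes were called (10.3% and 11.1%), SDF2L1 at 0.55 ± 0.12 (adjusted p = 0.00315) and CALR at 0.27 ± 0.09 (adjusted p = 0.0377). SDF2L1 in Y396E kept its call without each of the 24 libraries. The other 3 calls did not, and were lost without 9, 11 and 8 of the 24 libraries for SDF2L1 in S181E, CALR in S181E and CALR in Y396E. HERPUD1 in Y396E had a difference of -0.26 ± 0.09 (adjusted p = 0.0434), just short of the fold. It was called when WT control replicate 2 (-0.32) or WT arsenite replicate 2 (-0.28) was left out. The same held without Y396E control replicate 3 (-0.32) or Y396E arsenite replicate 3 (-0.29). Library totals brought the difference of HERPUD1 to -0.36 in Y396E and to -0.33 in S181E, called in both. Library totals ended 3 of the 4 calls above: CALR was at 0.16 in S181E (adjusted p = 0.132) and at 0.16 in Y396E (adjusted p = 0.123), and SDF2L1 in S181E at 0.26 (adjusted p = 0.0824). PDIA4 had 0.25 ± 0.10 in S181E and 0.19 ± 0.10 in Y396E, and was called in both at 0.33 and 0.27 without WT control replicate 3. The comparisons with S181E and Y396E share the 6 WT libraries.

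**Figure D5:**
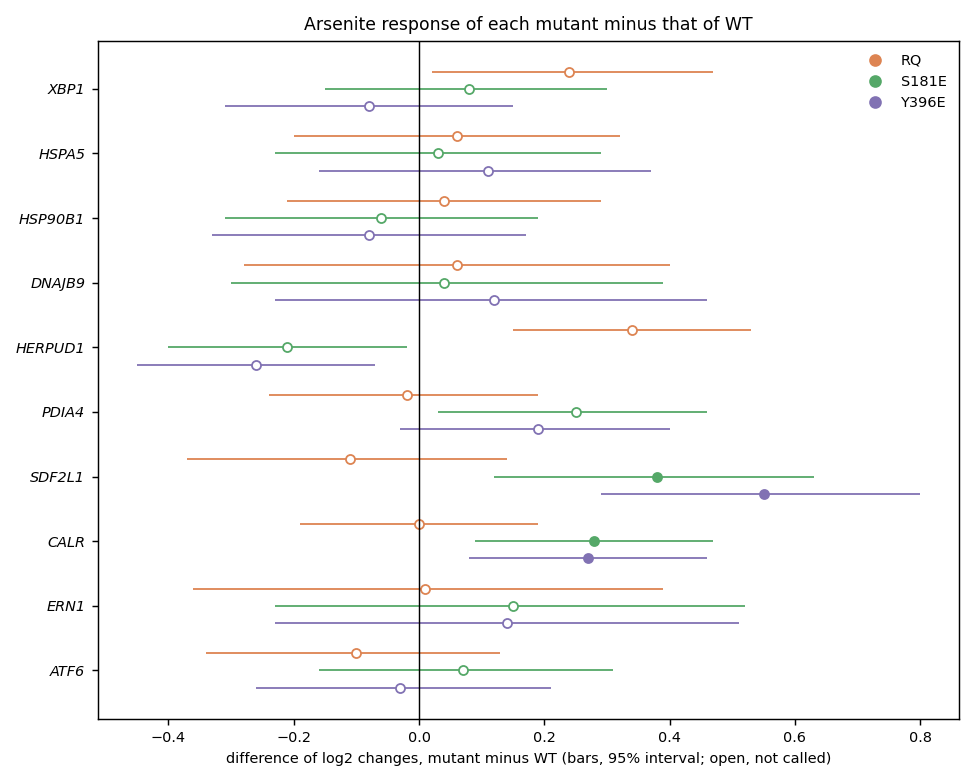
Difference of the log2 arsenite change, mutant minus WT (horizontal axis), of the 10 genes with 95% intervals; filled points were called and open points were not. SDF2L1 lies at 0.38 in S181E and 0.55 in Y396E, and HERPUD1 at 0.34 in RQ and at -0.26 in Y396E.

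Among the other ER genes, more had a higher than a lower arsenite change in the phosphomimetic mutants than in WT. Such a difference is the difference from WT in arsenite minus that in control, so it is not independent of the control differences given above. The median log2 difference of the 70 from WT was -0.25 in control and -0.04 in arsenite for S181E. For Y396E it was -0.24 and -0.01. In S181E the difference was called higher for 14 of the 70 and lower for 1 (6.98% and 9.41% of all genes), and in Y396E for 20 and 3 (10.3% and 11.1%). Library totals gave 6 and 5 in S181E and 11 and 3 in Y396E. Translocation genes made up 9 in each, and the genes lower were of the PERK list, ATF3 in both (-0.49 ± 0.12 and -0.75 ± 0.12) and DDIT3 and SESN2 in Y396E (-0.52 ± 0.13 and -0.44 ± 0.16). In RQ 5 of the PERK list were called higher and 0 lower. SESN2 had a difference of 1.49 ± 0.16 there, TRIB3 of 0.83 ± 0.17, ATF3 of 0.59 ± 0.12, CEBPB of 0.59 ± 0.09 and ATF4 of 0.41 ± 0.06.

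S181E and Y396E, which both put a glutamate at a phosphorylation site but in different linkers, were also compared with each other. Of the 10 genes 0 were called by edgeR or DESeq2, with 0 at an unadjusted p under 0.05 in control and 1, ATF6, in arsenite. Of all genes 0% were called by edgeR in control and 0% in arsenite, with 289 and 1375 at an unadjusted p under 0.05, and DESeq2 called 1 and 9. For SDF2L1 in arsenite the difference, Y396E minus S181E, was 0.16 with a 95% interval of -0.02 to 0.34. For XBP1 it was 0.10 in control (-0.06 to 0.27) and -0.05 in arsenite (-0.21 to 0.10), and for HERPUD1 in arsenite 0.07 (-0.06 to 0.20).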

How the data were processed

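Poly(A) RNA libraries (stranded kit) were aligned by the authors with STAR 2.7.11b to hg38. The deposited values are raw read counts per gene from featureCounts (Subread 2.0.6; exons of GENCODE 46, strand setting 2, neither multi-mapping nor overlapping reads assigned). Identifiers were matched to symbols with GENCODE 44, which covered 62541 of 63086 genes (99.1%). The filter kept the 9099 protein-coding genes whose CPM exceeded 10 in 12 or more of the 24 libraries, parental cells aside. One edgeR 4.0.16 quasi-likelihood model (R 4.3.3) with TMM factors of 0.866 to 1.084 covered the 8 groups, with 16 residual degrees of freedom and a common biological coefficient of variation of 0.0682. It was tested on simulated data. Adjustment was by Benjamini-Hochberg over all tested genes in each of 15 comparisons. Alternatives were DESeq2 1.42.0, other scalings, filters and thresholds, a replicate block, only the groups compared, and leaving out each library. Dishes were plated independently from 1 population, so p-values measure the spread between dishes.

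The 10 genes and the lists were chosen with earlier results of these data known. All 10 were to be named, with up to 2 called genes of largest rise and fall per list in 3 comparisons and the 3 genes most like XBP1, HSPA5 and HERPUD1. For HERPUD1, 1 of these is not reported here. EIF2AK3, the values named for PPP1R15A and SESN2 in WT, TRIB3 in RQ control, the remaining PERK list genes in RQ, the PERK list genes in the response differences and CHAC1 were named after their values were seen. RefSeq promoters (GRCh38.p14) ran from 250 bases before to 50 after the start.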

Additional observations from a re-analysis of the deposited data

Results flagged for a closer look

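The 4 differences between populations in the size of the arsenite change that were called by the test of the difference itself concern SDF2L1 and CALR. SDF2L1 fell by less than in WT, with a difference of 0.38 on the log2 scale in S181E and of 0.55 in Y396E. CALR differed by 0.28 in S181E and by 0.27 in Y396E. The difference for SDF2L1 in Y396E was called without each of the 24 libraries in turn, and the other 3 were each lost without some libraries. With library totals as the scale CALR was at 0.16 in S181E and 0.16 in Y396E (adjusted p = 0.132 and 0.123, edgeR) and SDF2L1 in S181E at 0.26 (adjusted p = 0.0824), none of them called. In control the SDF2L1 and CALR libraries of both mutants overlapped with those of WT. CALR still differed from WT by -0.15 ± 0.07 in S181E and -0.14 ± 0.07 in Y396E in control. In arsenite CALR differed by 0.13 ± 0.07 in both, and none of these differences was called. SDF2L1 differed by -0.11 ± 0.09 in S181E and -0.12 ± 0.09 in Y396E in control, and by 0.27 ± 0.09 and 0.42 ± 0.09 in arsenite.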

How the results depend on the processing

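Of the 150 tests of the 10 genes, 0 called values changed sign under the 11 other settings or the 24 fits without 1 library. RLE size factors, all gene types and the parental libraries changed 0 calls. Fold changes above 1.5 left 4 genes called for arsenite in S181E and 4 in Y396E, and 0 in each of the other comparisons that rested on smaller changes, namely S181E control, RQ, S181E and Y396E arsenite, and the responses of S181E and Y396E. Library totals left 0 called in S181E control, where they called 3238 of all genes higher and 642 lower. In the response of S181E they ended the calls of SDF2L1 and CALR and called HERPUD1 lower (-0.33), with 256 of all genes higher and 1716 lower. In Y396E control 1 was called by DESeq2 (1273 of all genes higher and 1345 lower), with only the groups compared and with no fold threshold. In S181E arsenite 2 were called with only the groups compared and 4 with no fold threshold, and in Y396E arsenite 1 with only the groups compared. How many of all genes are called moves with filters, thresholds and groups too and is not given here, so these counts have no background beside them. For scale, an unadjusted p under 0.05 in S181E arsenite was reached by 3098 of the 9099 genes and by 5 of the 10. In the response of S181E 0 were called with CPM above 1 in at least 3 libraries, and in that of Y396E 1 was called with that filter, with no filter and with only the groups compared. Apart from the threshold changes, the cause was not tested. Leaving out 1 library gave 0 to 1 in RQ control and in Y396E control, 0 to 2 in S181E arsenite, 0 to 3 in the response of S181E and 1 to 3 in that of Y396E. The replicate block changed 0 of the 150 calls. Replicate numbers were not shown to pair the samples: 1 of 12 same-number pairs of control and arsenite correlated above 0.1 (0.0163 to 0.153), although 23 of 24 libraries were on average closest to their own number, a hint from the data and not from the design. ERN1 had 9.1 to 18.7 CPM and an SE of 0.13 in the comparisons between pairs of groups, and the source of its spread was not tested. The share of promoters with the UPRE core was 1.68% without the 50 bases after the start.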

Other observations

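CHAC1, a glutathione-degrading enzyme induced by ATF4, did not pass the filter on low counts, and its values come from the fit with CPM above 1 in at least 3 libraries. Its lowest, median and highest libraries were 1.36, 2.85 and 3.2 CPM in WT control and 19.8, 21.1 and 22.9 CPM in WT arsenite. In RQ arsenite they were 68.3, 78.9 and 87.1 CPM. In S181E arsenite they were 9.29, 9.63 and 10.9 CPM, and in Y396E arsenite 8.23, 10.5 and 11.2 CPM. The arsenite libraries of RQ lay above and those of both phosphomimetic mutants below those of WT. The log2 difference from WT in arsenite was 1.87 ± 0.15 in RQ, -1.10 ± 0.16 in S181E and -1.10 ± 0.16 in Y396E (adjusted p = 2.14e-08, 1.87e-05 and 1.02e-05, edgeR).

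Over the 8 group means of log2 CPM, centred on WT control, the tested genes most like XBP1 were ACSS2, SYTL1 and CALCOCO1, with root mean square differences of 0.094, 0.106 and 0.121. Those most like HSPA5 were VPS8 (0.072), KLHDC4 (0.073) and ACADVL (0.075), and the closest to HERPUD1 were RSRC2 (0.093) and ZNF165 (0.095). HSP90B1 was the member closest to each, at 0.248 from XBP1, 0.102 from HSPA5 and 0.830 from HERPUD1.

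The median spread between dishes of the 10 genes was wider in control than in arsenite. The median coefficient of variation was 9.5% against 2.17% in WT, with 9 of the 10 wider in control, and 10.3% against 5.22% in RQ, with 7 wider. It was 3.56% against 2.14% in S181E (7 wider) and 7.49% against 5.49% in Y396E (6 wider). The highest value went the other way in WT, at 15.6% in control and 17% in arsenite, and in Y396E, at 13.3% and 21.1%, where ERN1 was the most variable gene in arsenite. ERN1 in Y396E arsenite was at 12.3, 12 and 17.2 CPM, the last from the library that stood apart. These differences in spread were not tested.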
